A study of Rattus norvegicus with 4 samples.

Results

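The bone morphogenetic protein (BMP) genes described here were the ligands Bmp2, Bmp4 and Bmp7, the type I receptor gene Bmpr1a, the target genes Id1, Id2 and Id3, and the inhibitory SMAD genes Smad6 and Smad7. All probe sets whose platform gene symbol was one of these 9 names were taken, which gave 14 of the 15866 probe sets of an Affymetrix RAE230A chip. The rule that picks the members uses names and roles and no measured value, although earlier results of these data were known when they were chosen. RNA came from oxyntic mucosa, which lines the stomach body and secretes acid, scraped from female Sprague-Dawley rats of 8 weeks in a 21-day study. In the octreotide LAR group, 6 rats were pooled in pairs onto 3 chips, called pools 1 to 3, and in the vehicle group 8 rats were pooled onto 1 chip. Octreotide is a long-lived somatostatin analogue, LAR is its slow-release depot form, and the labelled amount was 5 mg per animal, with the vehicle group receiving the matching volume of LAR vehicle. All animals were fasted overnight and anaesthetised with fentanyl, haloperidol and midazolam. Groups were taken from the sample titles, although octreotide LAR also appears in the source name given for the vehicle chip. No allele or transgene was given for any group.

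BMP ligands are secreted dimers that bring type I and type II receptor kinases together on the cell surface. The activated type I receptor phosphorylates SMAD1, SMAD5 and SMAD9, which enter the nucleus with SMAD4 and switch on target genes such as the ID genes and the inhibitory SMADs. ID proteins bind helix-loop-helix transcription factors and keep them off DNA, while SMAD6 and SMAD7 feed back on the receptors. In the stomach of mice, BMP signalling restrains proliferation in the gastric glands and is needed for normal differentiation of gland cells, parietal cells among them.

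The promoters of the 3 ID genes and of Smad7 are shown because these are textbook read-outs of BMP signalling among the members. Smad6 is also such a target, but no promoter was available for it. As given below, Id1, Id3 and 1 of 3 Smad7 probe sets lay above the vehicle chip on every treated pool. Id2 and the other Smad7 probe sets did not. The sequences are those of RefSeq on build GRCr8, 6 of the 9 members matched the promoter table, and Bmp2, Bmp7 and Smad6 did not. Each run is the 250 bases upstream of the annotated start of the gene, read 5′ to 3′ on the gene's own strand. Capitals mark matches, on either strand, to GGCGCC (a GC-rich element of BMP-responsive enhancers), CAGAC (the SMAD box), GTCTAGAC (the palindromic SMAD-binding element) and TATAAA (the TATA box). CAGAC is not part of GTCTAGAC on either strand. The windows lie on chromosome 3 at chr3:161671314-161671563 (Id1, plus strand), on chromosome 6 at chr6:47470996-47471245 (Id2, minus strand), on chromosome 5 at chr5:153656041-153656290 (Id3, plus strand) and on chromosome 18 at chr18:71263258-71263507 (Smad7, plus strand).
Id1: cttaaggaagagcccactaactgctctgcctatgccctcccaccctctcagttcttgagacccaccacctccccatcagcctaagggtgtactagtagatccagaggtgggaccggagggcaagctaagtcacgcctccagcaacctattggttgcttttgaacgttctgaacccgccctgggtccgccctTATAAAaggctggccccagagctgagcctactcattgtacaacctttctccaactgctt
Id2: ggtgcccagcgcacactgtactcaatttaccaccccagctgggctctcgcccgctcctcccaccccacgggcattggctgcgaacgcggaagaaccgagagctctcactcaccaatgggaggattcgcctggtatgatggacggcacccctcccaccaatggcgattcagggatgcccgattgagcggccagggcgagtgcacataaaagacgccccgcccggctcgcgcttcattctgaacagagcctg
Id3: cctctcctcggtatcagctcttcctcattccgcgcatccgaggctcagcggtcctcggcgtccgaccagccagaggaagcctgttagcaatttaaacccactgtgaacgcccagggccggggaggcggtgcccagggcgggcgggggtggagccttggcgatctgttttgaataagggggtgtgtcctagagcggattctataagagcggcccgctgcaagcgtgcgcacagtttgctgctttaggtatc
Smad7: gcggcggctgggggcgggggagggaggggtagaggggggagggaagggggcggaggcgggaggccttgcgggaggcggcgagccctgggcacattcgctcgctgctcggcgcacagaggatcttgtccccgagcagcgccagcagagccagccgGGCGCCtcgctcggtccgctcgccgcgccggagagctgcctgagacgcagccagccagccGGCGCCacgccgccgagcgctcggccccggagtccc
The Smad7 window held GGCGCC at 2 places, beginning 96 and 36 bases before the start, and 8.69% of the 33469 rat promoters in the table held it at least once in the same window. That window was also rich in G and C, at 78.0%, against a median of 51.2% over all promoters. The Id1 window held TATAAA 59 bases before the start, as did 12.9% of promoters somewhere in theirs. None of the ID gene windows held GGCGCC or CAGAC, and none of the 4 windows shown held GTCTAGAC, which 0.173% of all promoters held. CAGAC, present in 42.9% of all promoters, was found 2 times in the Bmp4 window. These matches describe letters in a window of 250 bases, and SMAD-responsive elements can lie elsewhere.

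The chips were alike in overall signal. The median signal was between 223.7 and 233.4 on the octreotide LAR chips and 225.9 on the vehicle chip. Per the experiment headers all 4 chips shared 1 lot, 1 wash protocol, 1 hybridisation day and 1 scan day, and each had its own fluidics module, so module and chip cannot be told apart. The summed signal of 6 parietal cell markers, led by the proton pump genes Atp4a and Atp4b, was 70253 to 82987 on the octreotide LAR chips and 78660 on the vehicle chip. These 2 genes carry most of that sum. Of the 6 markers, 2 lay below vehicle on all pools, the potassium channel genes Kcnq1 and Kcne2 at log2 differences of -0.58 and -0.37 (limma adjusted p = 0.9998 for both), and 0 lay above it on all pools. Over all 15866 probe sets, 24.0% lay below vehicle on all pools and 24.4% above it. The comparison of octreotide LAR with vehicle was made with limma on log2(signal + 16), for the 9520 probe sets whose mean signal over all chips reached the 40th percentile, 149.7. It called 8 of them at an adjusted p under 0.05, with 7 higher (0.0735% of those tested) and 1 lower (0.0105%). The vehicle group is 1 chip, so the spread comes from the treated pools alone, and an exact permutation test of 3 chips against 1 could not go below p = 0.25. Levels of different probe sets are not set against each other, since each probe set has its own scale.

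Among the BMP members, the ID genes Id3 and Id1 and the ligand Bmp2 stood highest over vehicle in relation to their spread, but no member passed the test over all probe sets. Id3 was 1.65-fold and Id1 1.33-fold higher in the mean, and the brighter Bmp2 probe set was 1.56-fold higher, each above the vehicle chip on all 3 treated pools. The brightest Smad7 probe set and Bmp4 also lay above vehicle on every treated pool, by smaller differences. Bmp7, Bmpr1a and Id2 overlapped the vehicle value, as did the dimmer probe sets of Bmp2 and Smad7. The tested Smad6 probe set lay below vehicle on all 3 treated pools, but it was tested only through its vehicle value. A second Smad6 probe set, very dim and not tested, lay above vehicle on all pools. Of the 14 member probe sets, 11 reached the level required for testing, and of these 0 were called at an adjusted p under 0.05 by limma, beside 0.0840% of all probe sets tested, and 3 had an unadjusted p under 0.05, all higher, beside 2.91% of all probe sets tested that were higher at that level. The 3 were Id3, Bmp2 and Id1. When all 14 were kept in the fit without the filter, the same 3 had unadjusted p-values of 0.0036, 0.0095 and 0.043 by limma.

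**Figure D1:**
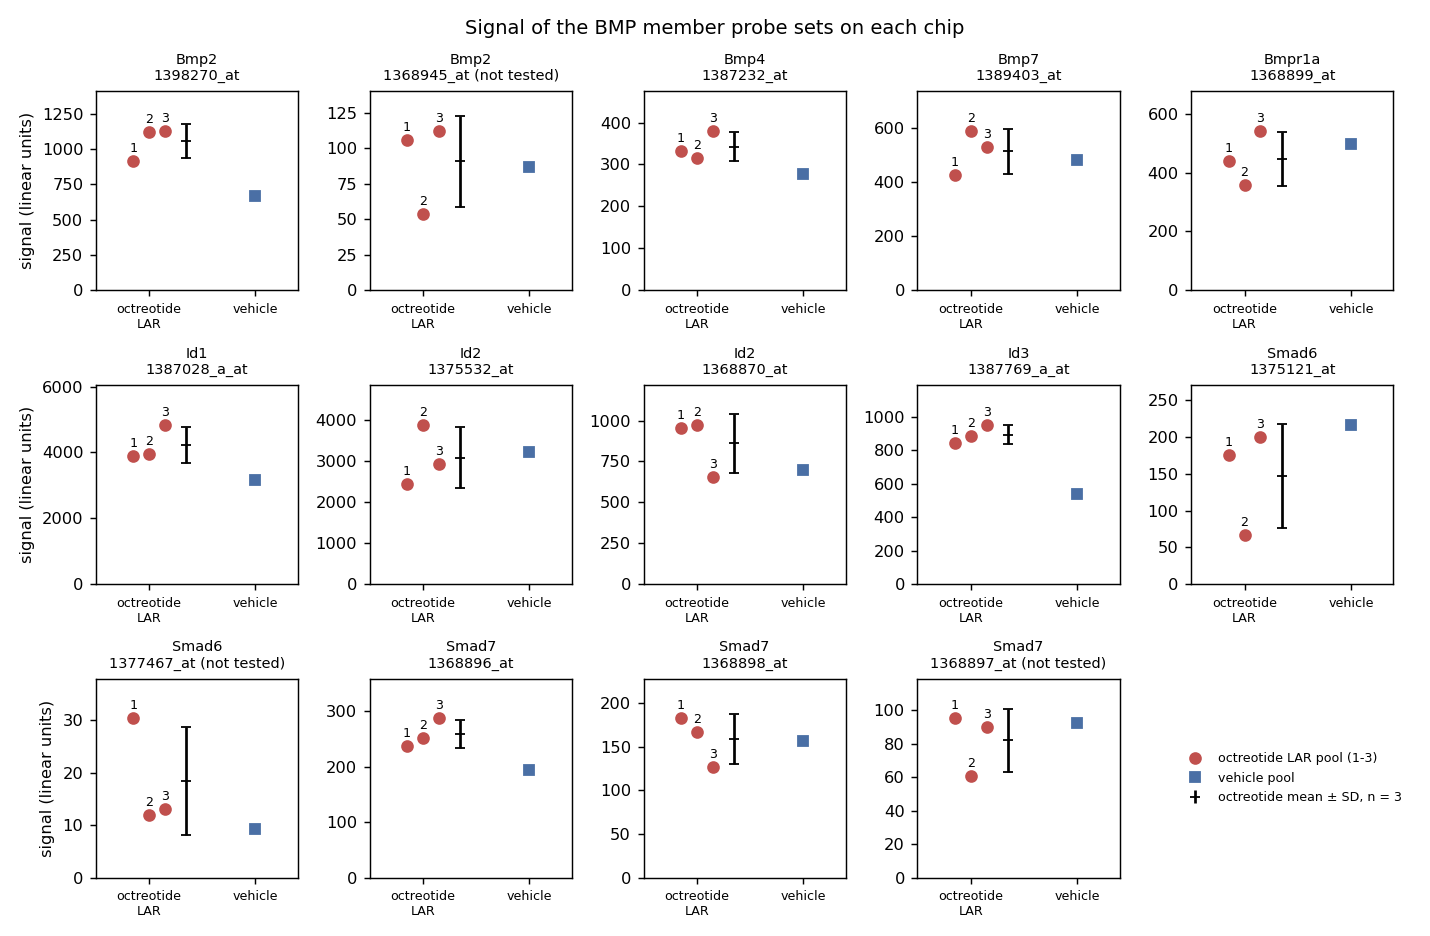
Signal in linear units (vertical axis, from 0, with its own scale in each panel) of the 14 member probe sets, with the 3 octreotide LAR pools as numbered circles and the vehicle pool as a square. The bar is the mean and SD of the octreotide LAR pools. Id3 sits between 841.4 and 953.8 on the octreotide LAR pools and at 535.3 on the vehicle chip, while Bmp7 spans 425.5 to 589.8 around a vehicle value of 479.9.

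Bmp2, a ligand named for its power to induce bone, was measured by 2 probe sets. The brighter one (1398270_at) had signals of 916.6, 1124.5 and 1130.4 on octreotide LAR pools 1, 2 and 3, against 669.2 on the vehicle chip. All treated pools lay above vehicle, with pools 2 and 3 nearly equal and pool 1 lowest among them. The mean was 1057 ± 122 (SD, n = 3) against that single 669.2, a log2 difference of 0.64, with an SE of 0.21 (95% interval 0.19 to 1.09, limma unadjusted p = 0.0090, adjusted p = 0.80). The dimmer Bmp2 probe set (1368945_at), designed from the same sequence record, had 106.3, 53.9 and 112.5 on the octreotide LAR pools against 86.9 on the vehicle chip. It lay under the level required for testing and overlapped, with pool 2 below vehicle and the other pools above it. The probe sets of Bmp2 thus differed most on pool 2, which was at 0.74 against vehicle on the log2 scale by the brighter and at -0.56 by the dimmer.

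Bmp4, a close relative of Bmp2 that is made in the mesenchyme of the gut, had signals of 332.2, 315.8 and 380.5 on the octreotide LAR pools against 277.2 on the vehicle chip. The pools lay above vehicle without overlap, pool 3 highest. The log2 difference was 0.29 and its 95% interval, from -0.29 to 0.86, included 0 (limma, adjusted p = 0.9998). Bmp7, a ligand best known from kidney development, had 425.5, 589.8 and 528.1 on the octreotide LAR pools against 479.9 on the vehicle chip. Pool 1 was below vehicle and pools 2 and 3 above it, and the log2 difference of 0.08 had an interval from -0.45 to 0.62.

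Bmpr1a, the type I receptor kinase that BMP2 and BMP4 bind, was the receptor gene among the members. Its signals were 440, 359.6 and 543 on the octreotide LAR pools against 499.2 on the vehicle chip. The vehicle value lay inside the treated range, with pools 1 and 2 below it and pool 3 above. The log2 difference was -0.17 (95% interval -0.74 to 0.40, limma adjusted p = 0.9998). It was -0.029 without pool 2 and -0.32 without pool 3.

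Id3 gave the smallest p of all members. Its signals were 841.4, 887 and 953.8 on the octreotide LAR pools against 535.3 on the vehicle chip. The treated pools lay close together and all well above vehicle, at 894.1 ± 56.5 (SD, n = 3). The log2 difference was 0.72, with an SE of 0.20 (95% interval 0.28 to 1.16, limma unadjusted p = 0.0038, adjusted p = 0.53). By p it was number 67 of the 9520 probe sets tested, and 1.58% of those tested had a larger positive difference.

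Id1 had the same direction with a smaller difference. Its signals were 3882.9, 3949.9 and 4845.9 on the octreotide LAR pools against 3148.4 on the vehicle chip. Pools 1 and 2 were nearly equal, pool 3 was highest, and none overlapped vehicle. The log2 difference was 0.42, with an SE of 0.18 (95% interval 0.03 to 0.80, limma unadjusted p = 0.036, adjusted p = 0.9998), and 7.47% of the probe sets tested had a larger positive difference. When the spread was moderated with no trend, or when pool 3 was left out, 2 and not 3 member probe sets had an unadjusted p under 0.05.

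Id2, the third ID gene and likewise an inhibitor of helix-loop-helix factors, overlapped vehicle by both of its probe sets. The brighter one (1375532_at) had 2424.3, 3878 and 2916.7 on the octreotide LAR pools against 3214.8 on the vehicle chip, so pool 2 was above vehicle and pools 1 and 3 below it. The dimmer one (1368870_at) had 957.5, 975.8 and 653.9 on the octreotide LAR pools against 700.6 on the vehicle chip, so pools 1 and 2 were above vehicle and pool 3 below it. The log2 differences were -0.09 (95% interval -0.58 to 0.39) for the brighter and 0.27 (95% interval -0.26 to 0.81) for the dimmer. The probe sets of Id2 therefore went opposite ways on pool 1, at -0.40 and 0.44 on the log2 scale. Whether Id2 differed from Id1 and Id3 in its response was not tested.

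**Figure D2:**
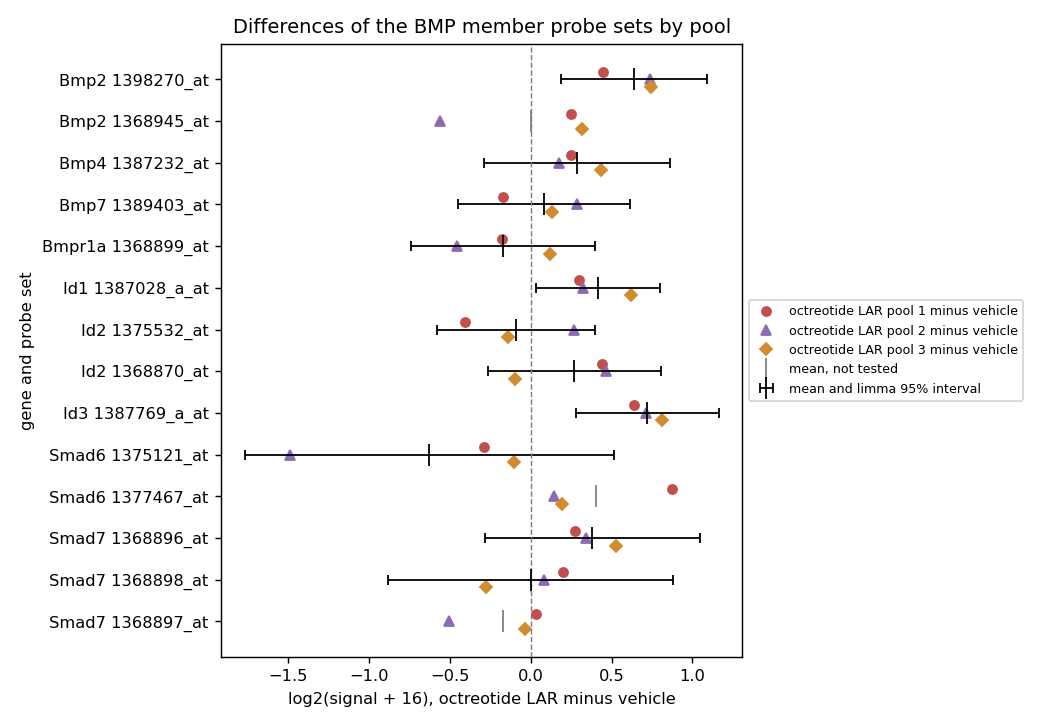
Log2(signal + 16) of each octreotide LAR pool minus the vehicle chip (horizontal axis) for the 14 member probe sets (rows), with the mean and its limma 95% interval where the probe set was tested. The intervals of Id3, the brighter Bmp2 probe set and Id1 lie above 0, from 0.28, 0.19 and 0.03 upward, and the other 8 tested intervals include 0.

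Smad7, an inhibitory SMAD that blocks both BMP and TGF-beta receptors, was measured by 3 probe sets designed from 1 sequence record. The brightest (1368896_at) had 237.9, 251.1 and 287.3 on the octreotide LAR pools against 194.3 on the vehicle chip. All pools lay above vehicle and pool 3 was highest, as for Id1 and Id3. Its log2 difference was 0.38 (95% interval -0.28 to 1.05, limma adjusted p = 0.9998). The next (1368898_at) had 182.7, 167.2 and 126.9 on the octreotide LAR pools against 157.3 on the vehicle chip, with pool 3 below vehicle and the others above it. The dimmest (1368897_at), not tested, had 95.3, 60.7 and 90.2 on the octreotide LAR pools against 92.8 on the vehicle chip. Only the brightest of the 3 was thus separated from vehicle.

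Smad6, the inhibitory SMAD that acts mainly on the BMP branch, was dim. Its tested probe set (1375121_at) had 175, 67.2 and 200.7 on the octreotide LAR pools against 217.1 on the vehicle chip. All pools lay below vehicle, but pool 3 only slightly, and pool 2 set most of the mean. The treated mean, 147.6, was under the filter level of 149.7, so this probe set was tested only through its vehicle value. The log2 difference was -0.63 (95% interval -1.76 to 0.51, limma adjusted p = 0.9998), and without pool 2 it was -0.20. A second Smad6 probe set (1377467_at), not tested, had 30.3, 12 and 13 on the octreotide LAR pools against 9.3 on the vehicle chip, a range in which the pseudocount of 16 largely sets the difference.

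Across all 14 member probe sets, tested or not, 6 lay above the vehicle chip on all 3 treated pools, beside 24.4% of all 15866 probe sets, 1 lay below on all pools, beside 24.0%, and 7 overlapped. The 6 were those of Id1, Id3 and Bmp4 and 1 each of Bmp2, Smad7 and Smad6, the last very dim. The median log2 difference of the 14 was 0.18, and it was 0.249, 0.224 and 0.165 on pools 1, 2 and 3, while over all probe sets the median was -0.01. Pool 3 had the highest treated signal for 8 of the 14, pool 2 for 3 and pool 1 for 3, and over all probe sets these shares were 30.0%, 36.1% and 34.0%. Several probe sets measure the same gene, so the 14 are not independent.

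**Figure D3:**
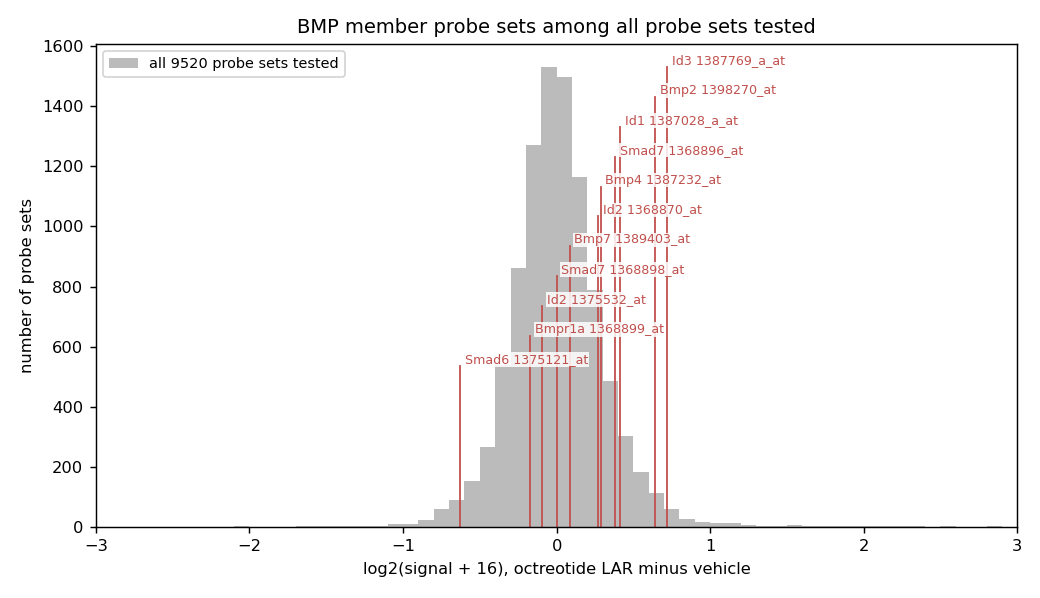
Number of probe sets (vertical axis) by log2(signal + 16) of octreotide LAR minus vehicle (horizontal axis) for all 9520 probe sets tested, with the 11 tested member probe sets as labelled lines whose height has no meaning. Id3 and the brighter Bmp2 probe set lie in the upper tail, with 1.58% and 2.33% of the probe sets tested above them. Smad6 lies in the lower tail, with 1.79% below it. Its treated mean, 147.6, is under the filter level of 149.7, so it was tested only through its vehicle value. Pool 2 sets most of its difference.

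Other genes of the pathway, on a list of 96 that also held TGF-beta relatives and partners of the ID proteins, were represented by 69 genes on the chip, of which 49 were tested. By limma 0 passed, beside 0.0840% of all probe sets, and 3 had an unadjusted p under 0.05, all higher, beside 2.91% of all probe sets tested that were higher at that level. These were the target genes Klf4 and Hamp and the antagonist Grem1. The count at an unadjusted p under 0.05, in either direction, reached 7 when pool 1 was left out, and 4 when pool 2 or pool 3 was. The median log2 difference of the 69 was 0.02, and 29 of the 49 tested were higher in the mean and 20 lower. Of all 9520 probe sets tested, 4696 were higher in the mean and 4824 lower. By role, 7 of 10 tested targets, 11 of 16 antagonists and intracellular regulators and 6 of 10 receptors were higher in the mean. So were 2 of 5 SMADs, 2 of 5 ID partners and 1 of 3 genes listed as ligands. The last was Bmp1, which despite its name encodes a protease and not a ligand. The ligand genes Tgfb3 and Bmp6 were lower in the mean.

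Klf4, a transcription factor of differentiated epithelium, had signals of 3094.5, 3685.7 and 3230.6 on the octreotide LAR pools against 2115.8 on the vehicle chip. All pools lay above vehicle, and the log2 difference was 0.65 (95% interval 0.27 to 1.02, limma adjusted p = 0.48, and 0.032 without pool 1 in a range of 0.032 to 0.996 over 11 alternatives). Hamp encodes hepcidin, an iron-regulating peptide whose gene is a classic BMP target in liver. It had 2239.4, 1598.5 and 2372 on the octreotide LAR pools against 1293.4 on the vehicle chip, again without overlap, and pool 2 was nearest to vehicle. Its log2 difference was 0.65 (95% interval 0.17 to 1.13, limma adjusted p = 0.92, and 0.037 without pool 2 in a range of 0.037 to 0.9999 over 11 alternatives).

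Grem1, the secreted antagonist gremlin that binds BMP2 and BMP4, had 557.7, 569.2 and 572.6 on the octreotide LAR pools against 358 on the vehicle chip. The 3 pools were nearly equal and all above vehicle, and the log2 difference was 0.64 (95% interval 0.16 to 1.12, limma adjusted p = 0.95). Twsg1, a secreted modulator of BMP binding, and Bambi, a decoy receptor, were higher on all pools as well, by log2 differences of 0.34 and 0.54, with intervals that include 0. Ets1, a transcription factor listed with the ID partners, was 0.57 higher in the mean, with pool 1 almost at the vehicle value (314.9 on octreotide LAR pool 1 against 312.8 on the vehicle chip). Smurf1, a ubiquitin ligase that targets SMADs and BMP receptors, had 181.5, 228.4 and 258.2 on the octreotide LAR pools against 337.9 on the vehicle chip, and Sostdc1, a secreted antagonist, had 1539.1, 1509.1 and 981.7 on the octreotide LAR pools against 1748 on the vehicle chip. Both lay below vehicle on all pools, at log2 differences of -0.58 and -0.40, with intervals that include 0.

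The receptor and SMAD genes named next showed no common direction. They, and the antagonist gene Nog, were named for their role after their values were seen. Bmpr2, the type II receptor, had 588.8, 393.9 and 314.6 on the octreotide LAR pools against 411 on the vehicle chip. Smad1 had 1507.4, 1716 and 1117.2 on the octreotide LAR pools against 1109.9 on the vehicle chip, so pools 1 and 2 were clearly above vehicle and pool 3 almost equal to it. Smad5 and the shared partner Smad4 overlapped vehicle, at log2 differences of -0.02 and -0.17. The receptor genes Acvr1, Acvr2a and Acvr2b and the untested Smad9 overlapped it too. Nog, the antagonist noggin, lay under the level required for testing, with 48.2, 103.7 and 52.8 on the octreotide LAR pools against 108.8 on the vehicle chip.

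**Figure D4:**
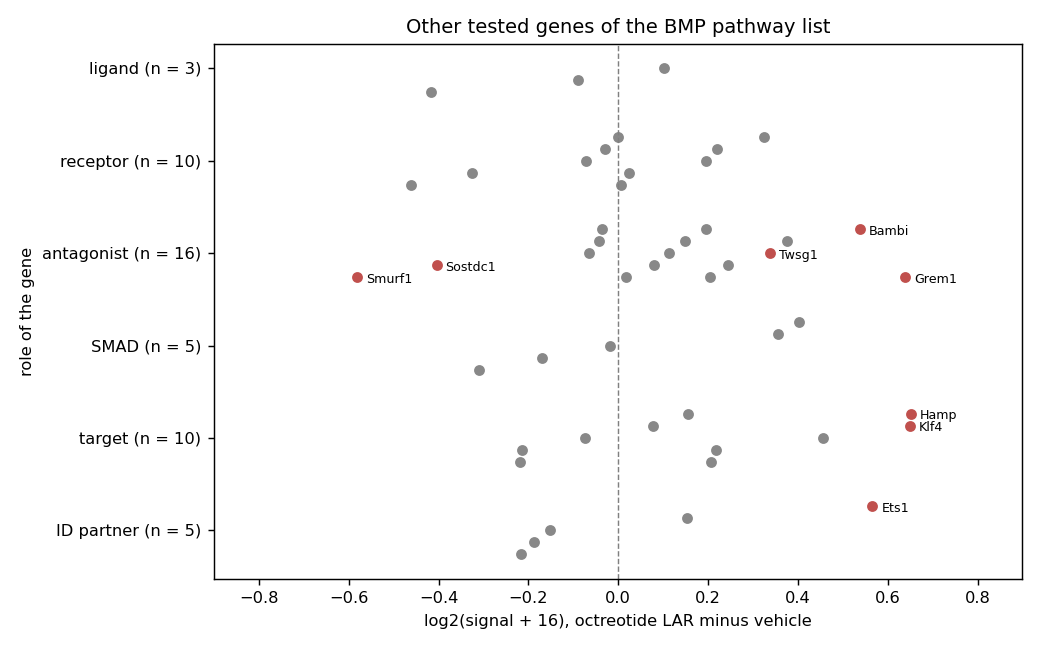
Log2(signal + 16) of octreotide LAR minus vehicle (horizontal axis) for the 49 tested genes of the wider pathway list, 1 point per gene, grouped by role (rows). The ligand row also holds Bmp1, which encodes a protease. The 8 genes with the smallest p are named, and Hamp, Klf4 and Grem1 lie farthest to the right, at 0.65, 0.65 and 0.64.

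The probe sets nearest in pattern to Id3 were found by the Euclidean distance between the 3 log2 differences from vehicle, over 8079 tested probe sets of 1 gene. They were those of Prpf4b, a kinase of the splicing machinery, Nr1d2, a repressor of the circadian clock, Psd4, an exchange factor for ARF6, Bclaf1, a nuclear RNA-processing factor, and Slc25a14, a mitochondrial carrier. Prpf4b had 473.3, 480.7 and 516.6 on the octreotide LAR pools against 291.6 on the vehicle chip, a distance of 0.04. Nr1d2 had 204.2, 218.6 and 251.7 on the octreotide LAR pools against 130.9 on the vehicle chip, a distance of 0.08. With 4 chips and 1 shared vehicle value, such likeness is a description only. On the vehicle chip Nr1d2, Bclaf1 and Slc25a14, at 130.9, 112.7 and 90.8, were under the filter level of 149.7. These genes were thus tested only through their treated values. Among probe sets that dim on the vehicle chip, only those higher with treatment could enter the comparison. Prpf4b and Psd4 were above that level on the vehicle chip, at 291.6 and 195.5.

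Scraped mucosa holds several cell types, and a difference in a bulk sample can come from more cells of a type or from more RNA per cell, which cannot be told apart here. Over all 15866 probe sets, 24.4% lay above vehicle on all pools and 24.0% below it. Markers of squamous forestomach epithelium moved with the treated chips. All 9 on the chip lay above vehicle on all pools, with a summed signal of 7892, 5799 and 5002 on octreotide LAR pools 1, 2 and 3 against 1559 on the vehicle chip. Their median log2 difference was 1.83. The 4 pit mucous cell markers on the chip were above vehicle on all pools by much less, with a median log2 difference of 0.215. They summed to 116036 to 122244 on the octreotide LAR chips against 106666 on the vehicle chip. The 5 markers of the histamine-storing ECL cells were below it on all pools, at 7375 to 7683 in summed signal on the octreotide LAR chips against 15137 on the vehicle chip.

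BMP ligands and ID genes are also made in the stroma, whose markers were examined in the same way. The 7 endothelial markers on the chip summed to 2881 to 3117 on the octreotide LAR chips against 2763 on the vehicle chip. On all pools, 3 of 7 lay above vehicle, beside 24.4% of all probe sets, and 1 of 7 (Emcn) below it, beside 24.0%. The 3 were Kdr, Eng and Vwf. Eng is also on the wider pathway list, and Vwf is 1 of 2 endothelial markers under the level required for testing. The 7 fibroblast markers summed to 34310 to 36618 on the octreotide LAR chips against 35314 on the vehicle chip, with 1 above vehicle and 2 below it on all pools. The 6 smooth muscle markers summed to 48163 to 63815 on the octreotide LAR chips against 55590 on the vehicle chip, with 0 above and 0 below it on all pools. Both lists spanned the vehicle value. The 4 macrophage markers on the chip summed to 800 to 1254 on the octreotide LAR chips against 894 on the vehicle chip, with 1 above and 1 below it on all pools. The part of any of these cell types in the values of Id1, Id3, Bmp2, Bmp4 and Smad7 was not tested.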

How the data were processed

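The deposited values are linear signal intensities, 1 for every probe set on every chip. How they were computed and scaled is not given in the sources used here. Their 2%-trimmed mean was nearly equal on all chips, at 496.8 to 497.2, and a change in the total amount of messenger RNA would not show in such values. Per the labels' protocols, RNA extraction used a Qiagen RNeasy kit, and the labelled cRNA carried biotin. Detection calls were not used here.

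The log2(signal + 16) scale was used, on which changes of dim genes come out too small. Probe sets with a mean signal under the 40th percentile were left out. The rest entered a linear model in limma 3.58.1 (R 4.3.3, eBayes with a trend), comparing 3 octreotide LAR chips with 1 vehicle chip in a two-sided test, adjusted by Benjamini-Hochberg over all 9520. The fit has 2 residual and 10.7 prior degrees of freedom. With 1 chip in the vehicle group, that chip is assumed to vary like the treated chips. This could not be checked, and the vehicle chip pools 8 rats while each treated chip pools 2. The treated pools came from separate animals, per the labels. The number of chips limits the precision. The fit was tested on simulated data.

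Probe sets were named from the platform annotation, updated by Entrez ID to GRCr8 symbols (12748 of 12783 with 1 gene matched, 312 named several genes and 2771 were unnamed here). For the wider list and the markers a gene was represented by its brightest probe set. The members and lists were chosen with earlier results of these data known. The text names all member probe sets, the 8 listed pathway genes with the smallest p, the 5 probe sets nearest to the member with the smallest p, and further genes where said. The lists of chief cells (5 markers, 76103 to 85213 on the octreotide LAR chips against 84098 on the vehicle chip) and red blood cells (2 on the chip, 1561 to 2634 on the octreotide LAR chips against 2602 on the vehicle chip) both spanned the vehicle value in summed signal. Alternatives changed the pseudocount, filter, scaling, moderation of the spread and the treated chips.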

Additional observations from a re-analysis of the deposited data

How the results depend on the processing

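No member probe set was called under any of the 11 alternatives run, and the lowest limma adjusted p was 0.13 for Id3 (highest 0.89), 0.12 for Bmp2 (1398270_at) and 0.34 for Id1. Each of these lowest values came from the fit without pool 1, where the spread rests on fewer treated chips. For Bmp2 and Id1 the highest values were larger than for Id3. Over the 11 alternatives the log2 difference of Id3 ran from 0.68 to 0.76, that of Bmp2 from 0.59 to 0.74 and that of Id1 from 0.31 to 0.47. Id3, Bmp2 (1398270_at), Id1, Bmp4, Bmpr1a, Smad6 and Smad7 (1368896_at) kept their sign under all 11, though Bmpr1a ran from -0.32 to -0.029. The sign turned for the dimmer, untested Bmp2 probe set (1368945_at) under 4 of 11, with values from -0.154 to 0.285 around a difference of 0.0039, and further for Id2 (1375532_at) without pool 1 (-0.27 to 0.065 over the fits that leave out a pool), for Bmp7 without pool 2 (-0.017 to 0.21) and for Smad7 (1368898_at) without pool 3 (-0.099 to 0.14) or with a pseudocount of 64 (0.0022). The median log2 difference of the 14 members, 0.18, was 0.12 with a pseudocount of 64 and 0.18 to 0.23 when each treated pool was left out in turn. The count of pathway list genes called, 0, was 0 to 1 when each pool was left out, with Klf4 called without pool 1 and Hamp without pool 2. The count of all probe sets called, 8, was 5 with a pseudocount of 64, a filter at the 20th percentile or centring on the 75th percentile, 4 with quantile normalization, and 23 to 52 when each pool was left out, where the spread rests on fewer chips and the same vehicle chip stays. It was 0 by limma without the filter, where 776 had an unadjusted p under 0.05, and 0 without a trend of the spread, where 456 had. A filter on the mean of log2 signals, chosen after seeing the data, called 10. No paired analysis was possible because the vehicle group has 1 chip. The dim probe sets, 1 each of Bmp2, Smad6 and Smad7, lay under the level required for testing, and the vehicle chip has no replicate, so no value here separates treatment from a peculiarity of that pool.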
